A study of Homo sapiens with 19 samples.

Results

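The genes described here encode 10 subunits of the integrin receptors: 5 beta subunits (ITGB1, ITGB3, ITGB4, ITGB5 and ITGB8) and 5 alpha subunits (ITGA2, ITGA3, ITGA5, ITGA6 and ITGAV). They were taken as a fixed list of epithelial integrin genes, matched by Ensembl identifier, and make up 10 of the 62700 genes in the count files. All 10 had enough counts to be tested, in lysates as well as in sampled RNA. The cells were A549, a standard cell line from a human lung adenocarcinoma, and the treatment was nanostraw electroporation (NEE), which uses hollow nanoscale tubes and an electric field to reach the inside of living cells and sample their RNA. Lysates were made from A549 monolayers and from A549 spheroids before NEE, right after it, and 2 h and 24 h after it, with 2 biological replicates in each of the 8 groups (16 libraries). RNA drawn by NEE from monolayers gave 3 more libraries, labelled technical replicates, whose RNA was purified with a different kit. All groups are the same unmodified line, and whether replicates came from separate cultures grown on separate days is not stated, so p-values measure the spread between these samples.

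Integrins are membrane receptors made of 1 alpha and 1 beta subunit, which bind the extracellular matrix outside the cell and the actin or keratin cytoskeleton inside it. ITGB1 pairs with most alpha subunits: with ITGA2 it forms a collagen receptor, with ITGA3 a laminin receptor and with ITGA5 the fibronectin receptor. ITGAV pairs with ITGB3, ITGB5 and ITGB8, among others, to bind vitronectin and other RGD-containing ligands and to activate latent TGF-beta, while ITGA6 and ITGB4 form the laminin receptor of hemidesmosomes, which anchor epithelial cells to the basement membrane.

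Lysate libraries held 16031034 to 24571083 counts in genes and NEE-sampled libraries 13626934 to 18512985, and 3 counts were worth 0.122 to 0.22 CPM there, CPM being a count relative to all counts of its library. Levels below are CPM with edgeR's TMM factors over the 19 libraries, and a gene is said to pass when edgeR's adjusted p was under 0.05. The summed level of 6 epithelial markers (EPCAM, CDH1 and keratins) was 5866 CPM in replicate 1 of the monolayers before NEE and 12010 to 25155 CPM in the other 15 lysates. The same library held 475 CPM of 10 natural killer and T cell markers, against 13.2 to 49.0 CPM in the others. Its sum of 5 fibroblast markers was 30.1 CPM, against 3.36 to 10.2 CPM. Its sum of 4 endothelial markers, of which 1 was detected, was 15.7 CPM, against 0.696 to 4.31 CPM. Sums of monocyte, platelet and erythroid markers were within the range of the other lysates. The monocyte sum, 28.4 CPM, was above that of the 7 other monolayer libraries (6.02 to 23.1 CPM). The library stood apart for many integrin genes too. Results for the 10 genes that rest on it are given with and without it, apart from correlations, which include it. In bulk RNA, fewer cells with a transcript and less transcript per cell cannot be told apart.

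Among beta subunits, ITGB1 transcripts were by far the most abundant per length of exon. In the 8 monolayer lysates ITGB1 stood at 381 CPM per kilobase and made up 89.0% ± 1.89 (SD, n = 8) of the summed level of the 5 beta subunits. ITGB4 followed at 25.0 CPM per kilobase, ITGB5 at 17.7, ITGB3 at 2.42 and ITGB8 at 0.179. In the 8 spheroid lysates the order was unchanged, with ITGB1 at 474 CPM per kilobase and 86.3% ± 1.17 (SD, n = 8) of the sum, ITGB4 at 49.7, ITGB5 at 21.6, ITGB3 at 3.92 and ITGB8 at 0.323. Alpha subunits were closer to each other: in monolayers ITGA3 stood at 17.3 CPM per kilobase, ITGA5 at 17.1, ITGA6 at 7.43, ITGA2 at 6.04 and ITGAV at 3.79. In spheroids the means were 21.7, 20.8, 6.80, 6.36 and 4.51 CPM per kilobase for the same genes, but the order differed between replicates. In all 4 replicate 1 spheroid libraries ITGA5 was above ITGA3 (39.0 against 25.7 CPM per kilobase before NEE) and ITGA2 above ITGA6 (8.14 against 4.98), and in all 4 of replicate 2 both pairs were the other way round (13.7 against 22.6 and 4.34 against 7.42). The shares of ITGA3 and ITGA5 among the 5 alpha subunits overlapped between libraries (21.5 to 41.2% and 24.7 to 45.1% in monolayers), so these genes were not separated in level there, and neither were ITGA6 and ITGA2. Replicate 1 before NEE raised several monolayer means. ITGA5, ITGA2, ITGAV and ITGB3 stood there at 43.9, 14.0, 9.08 and 10.7 CPM per kilobase. In the other monolayer libraries they ran from 9.76 to 17.5, 3.95 to 5.67, 1.97 to 3.85 and 0.216 to 2.18. Among those libraries ITGA5 was above ITGA3 only in replicate 2 right after NEE (17.5 against 17.2 CPM per kilobase).

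**Figure D1:**
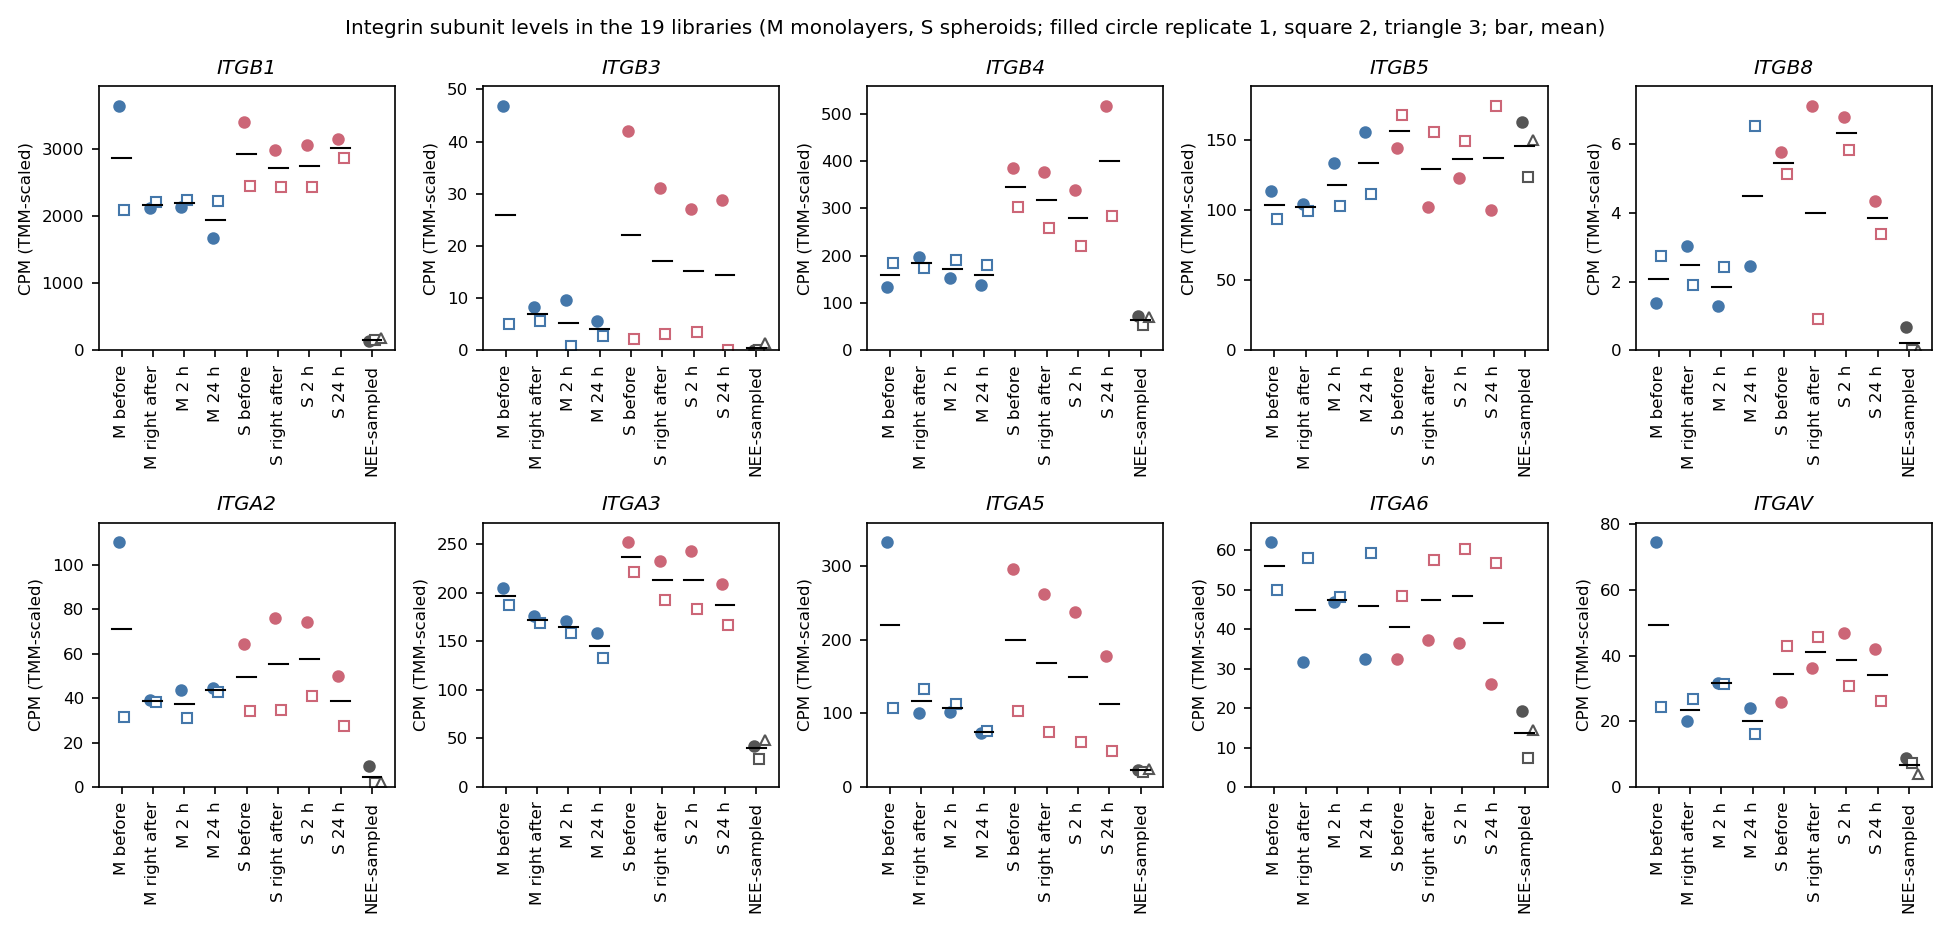
TMM-scaled CPM of the 10 integrin subunit genes (1 panel a gene, vertical axis from 0) in the 8 lysate groups and the NEE-sampled RNA; each point is 1 library and each bar the mean of a group. ITGB4 lies higher in all 8 spheroid lysates than in any monolayer lysate, and the filled points of replicate 1 stand above the open points of replicate 2 in spheroids for ITGB3 and ITGA5, among other genes.

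Promoter sequences are shown for 4 genes whose levels separated by replicate number in spheroids (described below), 3 of them higher and ITGB5 lower in replicate 1. ITGA6 also separated, lower in replicate 1, and is not shown. RefSeq start sites on GRCh38.p14 were matched for 7 of the 10 genes, and ITGB3, ITGB4 and ITGA3 are named only. Each stretch ends at the start site or at the first annotated exon of GENCODE release 29, and capitals mark GC boxes (GGGCGG or its complement CCGCCC, on either strand), a motif of many promoters without a TATA box.
ITGB1, chr10:32958233-32958480, minus strand: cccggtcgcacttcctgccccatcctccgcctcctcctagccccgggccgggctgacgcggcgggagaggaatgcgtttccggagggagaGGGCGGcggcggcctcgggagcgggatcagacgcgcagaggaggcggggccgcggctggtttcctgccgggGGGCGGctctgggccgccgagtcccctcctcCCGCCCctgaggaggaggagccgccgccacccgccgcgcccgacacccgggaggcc
ITGA2, chr5:52989102-52989325, plus strand: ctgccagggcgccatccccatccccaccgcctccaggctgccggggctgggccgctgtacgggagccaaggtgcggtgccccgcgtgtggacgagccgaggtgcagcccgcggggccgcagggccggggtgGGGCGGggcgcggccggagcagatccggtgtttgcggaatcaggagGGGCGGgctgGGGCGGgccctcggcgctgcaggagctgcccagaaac
ITGA5, chr12:54419461-54419516, minus strand: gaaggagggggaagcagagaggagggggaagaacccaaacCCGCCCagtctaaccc
ITGB5, chr3:124901419-124901668, minus strand: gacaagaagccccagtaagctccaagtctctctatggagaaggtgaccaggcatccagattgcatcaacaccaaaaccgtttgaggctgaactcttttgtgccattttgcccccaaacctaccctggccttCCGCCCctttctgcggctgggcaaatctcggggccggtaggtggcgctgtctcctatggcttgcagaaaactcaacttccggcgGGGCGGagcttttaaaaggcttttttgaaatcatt
ITGB1 held 3 GC boxes in these bases, ITGA2 3, ITGA5 1 and ITGB5 2, and 42.6% of 35116 promoters of 250 bases held at least 1. The stretches shown have 56 (ITGA5) to 250 (ITGB5) bases, so that share is not for stretches of like length. The stretches of ITGA6 before annotated exons, of 250 and 18 bases at its 2 start sites, held 0 GC boxes. The full window of 250 bases at the second site, which includes exonic bases, held 3. The AP-1 motif TGANTCA (N is any base, both strands), found in 6.57% of the same promoters, was in none of the windows of the 7 matched genes. ITGB1 has another listed start site and ITGB5 has other listed start sites, which are not shown. These matches describe letters, not binding sites.

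ITGB4, the beta subunit of the hemidesmosome receptor, was more abundant in spheroids than in monolayers, before NEE and after it. The comparison of culture form asked whether growth as spheroids goes with a different set of adhesion receptors. ITGB4 stood at 134, 184, 197, 174, 152, 191, 139 and 179.9 CPM in the monolayers, and at 386, 304, 377, 258, 339.7, 221, 517 and 285 CPM in the spheroids, taking times in order and replicate 1 before replicate 2. No monolayer library reached the lowest spheroid library, a separation upward that 3% of all genes tested showed. Over the 4 times the log2 fold change of ITGB4 was 0.99 ± 0.16 (SE), with an edgeR adjusted p of 0.000929. It passed in each fit that left out 1 library.

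Among all 17822 genes tested, 19.9% passed in this comparison (10% of the genes tested passed as higher in spheroids), and 2 of the 10 integrin genes passed, both higher. The second was ITGA3, an alpha subunit of a laminin receptor, which stood at 205, 187, 176, 169, 171, 158, 158 and 133 CPM in monolayers and at 252, 221, 233, 193, 243, 183, 209 and 166 CPM in spheroids. The levels overlapped, and the log2 fold change was 0.33 ± 0.11 (SE), with an edgeR adjusted p of 0.0459. ITGA3 no longer passed in 13 of the 16 fits that left out 1 library, in the fit with all 19 libraries or without the filter on low counts. For the 8 integrin genes that did not pass, the log2 fold changes were 1.10 for ITGB3, 0.91 for ITGB8, 0.37 for ITGA5, 0.34 for ITGAV, 0.33 for ITGB1, 0.30 for ITGB5, 0.12 for ITGA2 and -0.13 for ITGA6, with edgeR adjusted p-values of 0.0965 (ITGB1) to 0.843 (ITGA2). The median over the 10 genes was 0.34, against -0.02 over all genes tested.

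**Figure D2:**
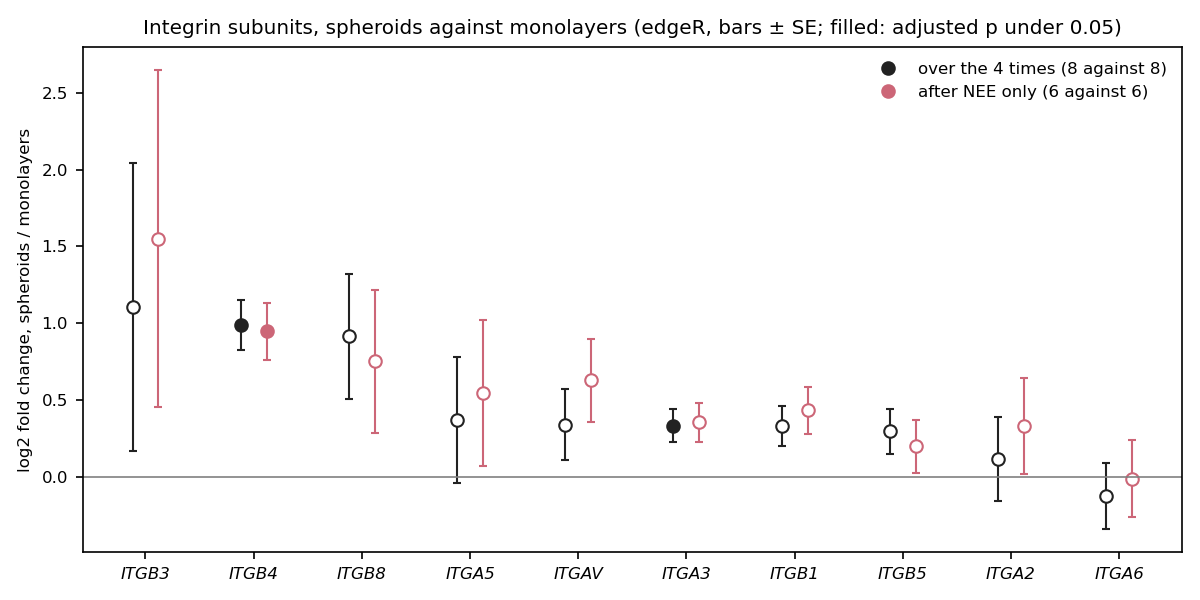
Log2 fold change of spheroids over monolayers for the 10 integrin subunit genes, over the 4 times (black) and over the 3 times after NEE (red), from edgeR; bars are ± SE and filled points have an adjusted p under 0.05. ITGB4 and ITGA3 are filled over the 4 times, and ITGB4 alone is filled after NEE.

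Leaving out replicate 1 of the monolayers before NEE raised the count that passed to 4: ITGB4 and ITGA3 again, ITGB1 with a log2 fold change of 0.45 (edgeR adjusted p = 0.0135) and ITGAV with 0.60 (edgeR adjusted p = 0.0488). ITGB1, the shared partner of most alpha subunits, stood at 1668 to 2247 CPM in the 7 other monolayer libraries and at 2428 to 3396 CPM in the spheroids. The groups did not overlap once that library was left out, which held for 7.26% of all genes tested. Over the 3 times after NEE, where 12.3% of all genes passed, ITGB4 was the 1 integrin gene that did (log2 fold change 0.95 ± 0.19 SE, edgeR adjusted p = 0.00519). With the replicate number as a block in that comparison, ITGA3 passed as well (edgeR adjusted p = 0.0328). Before NEE none of the 10 passed (1.3% of all genes did), ITGB4 coming closest with a log2 fold change of 1.12 (edgeR adjusted p = 0.101). ITGB4 did pass there with the replicate number as a block within each culture (edgeR adjusted p = 0.00909), with DESeq2 (adjusted p = 0.0226) and without the low-count filter (edgeR adjusted p = 0.00825).

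Genes of the wider adhesion system moved both ways between the cultures. Of 7 genes of the hemidesmosome list 2 were higher and 2 lower in spheroids: LAMB3, a chain of laminin-332 (log2 fold change 2.36, edgeR adjusted p = 0.00265), and CD151, the tetraspanin that binds laminin receptors (0.52, 0.0172), were higher, and PLEC, the cytolinker plectin (-0.59, 0.00495), and DST (-0.44, 0.0265) were lower. Of 27 matrix ligands 9 were higher and 2 lower, among them LAMB2 (1.28, edgeR adjusted p = 4.45e-05) and osteopontin SPP1 (1.72, 0.000165) higher and thrombospondin THBS1 (-1.27, 5.58e-05) lower. Fibronectin FN1, the ligand of the ITGA5 and ITGB1 receptor, stood at 2451 ± 439 CPM in spheroids and 560 ± 279 CPM in monolayers (SD, n = 8 each; higher in spheroids, edgeR adjusted p = 0.000853); it was chosen as a ligand after its values were seen. Of 18 membrane partners 5 were higher, with BSG the first by p (0.87, edgeR adjusted p = 0.00108), and 3 lower, with caveolin CAV1 (-1.52, 4.5e-05) and EGFR (-0.83, 0.00184) first.

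Inside the cell, the kinases and targets of adhesion had 2 higher and 4 lower of 20, with SRC (log2 fold change 1.20, edgeR adjusted p = 0.00122) and PTK2B (1.02, 0.00409) higher and vinculin VCL (-0.96, 0.00788) lower. Activators and adaptors had 1 higher and 2 lower of 17: SHARPIN, an inhibitor of integrin activation (1.00, edgeR adjusted p = 0.0317), was higher, and kindlins FERMT2 (-0.50, 0.0271) and FERMT1 (-0.66, 0.0482) were lower. Of 12 trafficking genes EPS8 was higher (0.87, edgeR adjusted p = 0.0004) and ARF6 lower (-0.75, 0.0133). Genes of TGF-beta activation had 2 higher and 1 lower of 13, with LTBP3 (1.37, edgeR adjusted p = 0.0207) and TGFBR2 (0.61, 0.0315) higher. Among 14 other integrin subunits, ITGAX (1.62, edgeR adjusted p = 0.000708) and ITGB2 (1.20, 0.00481), which form a leukocyte receptor, were higher and ITGA2B (-2.38, 0.036) lower. The summed level of 5 monocyte markers was 32.0 to 89.7 CPM in spheroids and 6.02 to 28.4 CPM in monolayers. Of these markers 3 or 4 were detected in each spheroid library and 2 or 3 in each monolayer library. The part of this sum in the ITGAX and ITGB2 results was not tested. ITGA2B is itself one of 5 platelet markers, whose sum was 0.333 to 2.50 CPM in spheroids and 2.39 to 9.03 CPM in monolayers. That sum is not separate from the ITGA2B result. ITGA2B gave 8.76 of 9.03 CPM in replicate 1 of the monolayers right after NEE, and 0 of 1.09 CPM in replicate 1 of the spheroids before NEE. The part of the other platelet markers was not tested.

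In spheroids the integrin genes separated by replicate number at all 4 times, a split that was looked at after the values were seen. The labels call the number a batch, without saying of what. Each side of the split is 1 number followed over the 4 times. The tests of the split take the times as replicates, so their SE and p-values do not measure the spread between batches. Of the 10 genes 7 did not overlap between the 4 libraries of replicate 1 and the 4 of replicate 2, which held for 8.79% of all genes tested. ITGB1, ITGB3, ITGB4, ITGA2 and ITGA5 were higher in replicate 1 (as were 4.4% of all genes), and ITGB5 and ITGA6 were lower (4.39%).

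ITGA5, the alpha subunit of the fibronectin receptor, stood at 296, 262, 238 and 178 CPM in replicate 1 and at 104, 75.0, 61.1 and 48.6 CPM in replicate 2, before, right after, 2 h and 24 h after NEE. Replicate 1 was the higher at each time, by a log2 fold change of 1.80 ± 0.27 (SE), with an edgeR adjusted p of 0.00528 where 1.61% of all genes passed. ITGB3, the beta subunit of a vitronectin receptor, stood at 42.0, 31.1, 27.0 and 28.7 CPM in replicate 1 and at 2.28, 3.24, 3.50 and 0.0581 CPM in replicate 2, the last of these below the level of 3 counts. Its log2 fold change was 4.15 ± 0.75 (SE), with an edgeR adjusted p of 0.0209. ITGB3 did not pass in 6 of the 8 fits that left out 1 spheroid library (edgeR adjusted p = 0.112 to 0.188), while ITGA5 passed in all 8 (0.0159 to 0.0371). Part of the ITGB3 gene, 2266 exonic bases, is shared with a read-through gene on the same strand.

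The collagen receptor subunit ITGA2 stood at 64.4, 76.3, 74.3 and 49.8 CPM in replicate 1 and at 34.3, 34.7, 41.2 and 27.5 CPM in replicate 2. ITGA6, the partner of ITGB4, ran the other way, at 32.6, 37.3, 36.5 and 26.1 CPM against 48.5, 57.5, 60.2 and 56.8 CPM. ITGB5, a vitronectin receptor subunit, stood at 144, 102, 123 and 99.7 CPM against 168, 156, 149 and 174 CPM. These 3 genes did not overlap between the numbers, but none passed (log2 fold changes 0.95, -0.74 and -0.46, edgeR adjusted p = 0.109, 0.145 and 0.174). ITGB4, with 0.61 (edgeR adjusted p = 0.0574), and ITGB1, with 0.33 (0.529), did not pass either. DESeq2 passed 6 of the 10, but its share over all genes is not given here.

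**Figure D3:**
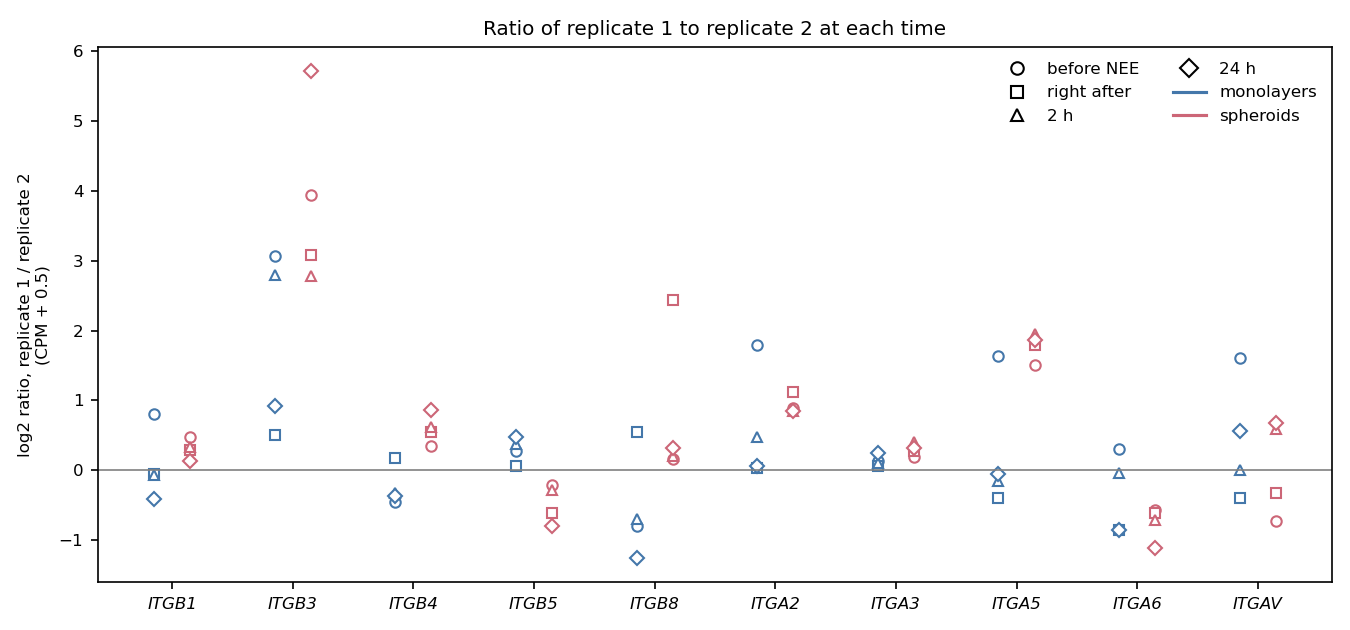
Log2 ratio of replicate 1 to replicate 2 (CPM + 0.5) at each time for the 10 integrin subunit genes, monolayers in blue and spheroids in red, with 1 symbol a time. In spheroids all 4 points lie below 0 for ITGB5 and ITGA6, on both sides of 0 for ITGAV, and above 0 for the other genes.

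In monolayers none of the 10 separated by number (8.73% of all genes did), and none passed (1.28% of all genes did). Without replicate 1 before NEE, ITGA6 was lower in every replicate 1 library than in any of replicate 2, where 12.5% of all genes separated either way. With both libraries before NEE left out, ITGA6 and ITGB1 were lower in replicate 1 without overlap, against 16.2% of all genes separated either way. ITGA6 ran the same way as in spheroids and ITGB1 the opposite way. ITGA5 there stood at 333, 101, 102 and 73.9 CPM in replicate 1 and at 107, 133, 113 and 76.6 CPM in replicate 2. Apart from the library before NEE, the numbers overlapped for ITGA5. The difference between the cultures in this split did not pass for any of the 10 by edgeR (ITGA5 1.56, adjusted p = 0.123; ITGB4 0.85, adjusted p = 0.105), where 0.46% of all genes passed. It passed for ITGA5 when either monolayer library before NEE was left out, with 2.01 (edgeR adjusted p = 0.000311) without replicate 1. DESeq2 passed 3 of the 10, again without the share over all genes. Among other adhesion genes, LAMB3 (log2 fold change 1.89, edgeR adjusted p = 0.000364) and LAMA3 (1.64, 0.00528), chains of laminin-332, and COL4A1 (1.98, 0.00758) were higher in replicate 1 of the spheroids. The epithelial marker sum was 13129 to 14215 CPM in replicate 1 and 15769 to 18635 CPM in replicate 2 of the spheroids, and the monocyte marker sum 54.4 to 89.7 CPM and 32.0 to 47.4 CPM. In monolayers the epithelial sum was 5866 to 13372 CPM in replicate 1 and 20086 to 25155 CPM in replicate 2. The part of these lists in the split was not tested.

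No integrin gene passed in any comparison of times around NEE in the main fits, while some did without the low-count filter, as given at the end. The study sampled the cells at these times to see how NEE changes them. In the main fits the lowest edgeR adjusted p of the 10 genes over all comparisons of times, and over the 3 tests of a difference between the cultures, was near 1. Few genes passed at all by edgeR: 0 right after NEE, 6 (0.0337%) at 2 h and 0 at 24 h in both cultures together, against 2.25%, 4.84% and 4% with an unadjusted p under 0.05. The share was 0.0729% for 2 h against the earlier times, 0.0561% for 24 h against 2 h, 0.00561% at 2 h in monolayers, 0.0112% at 2 h in spheroids and 0% in the other comparisons of times. From 2 h against the earlier times, CCN1, a matrix protein that binds integrins, was the 1 of the listed matrix ligands that passed (log2 fold change 3.23, edgeR adjusted p = 0.00678).

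The time differences of ITGB3, ITGA2, ITGA5 and ITGAV in monolayers shrank or changed sign without 1 library, as did smaller ones of ITGB1, ITGA3 and ITGA6. Before NEE, ITGB3 stood at 46.9 and 5.17 CPM, ITGA5 at 333 and 107 CPM, ITGA2 at 110.4 and 31.6 CPM and ITGAV at 74.5 and 24.2 CPM in replicates 1 and 2. Replicate 1 was the highest of the 8 monolayer libraries for 7 of the 10 genes (ITGB1, ITGB3, ITGA2, ITGA3, ITGA5, ITGA6 and ITGAV). The leukocyte subunits ITGAL (32.8 CPM, against 0.349 to 3.18 in the other 15 lysates), ITGB2 (88.0 against 9.34 to 55.2), ITGA4 (15.2 against 0.769 to 6.11) and ITGAM (16.1 against 1.33 to 12.6) were higher there than in any other lysate. So were ITGA1 (9.40 against 0.849 to 6.08), ITGB6 (6.99 against 0 to 3.44), ITGB7 (1.75 against 0 to 1.59) and ITGAD (1.30 against 0 to 0.597). ITGAX (9.63 against 2.57 to 25.7), ITGAE (17.8 against 11.2 to 23.6), ITGA7, ITGA8, ITGA9, ITGA10, ITGA11 and ITGA2B were not. Against before NEE, ITGB3 had log2 fold changes of -1.89, -2.30 and -2.65 right after, 2 h and 24 h after NEE in monolayers, and ITGA5 of -0.91, -1.03 and -1.56. Without replicate 1 before NEE the ITGB3 values were 0.45, 0.043 and -0.30, and the ITGA5 values 0.14, 0.020 and -0.50, so that both stayed below 0 at 24 h alone. At the same times ITGA2 went from -0.87, -0.91 and -0.71 to 0.30, 0.26 and 0.48 without that library. ITGB1 went from -0.40, -0.38 and -0.57 to 0.056, 0.084 and -0.10.

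ITGAV, the shared alpha subunit of the RGD receptors, stood at 20.2 and 26.6 CPM right after NEE and at 24.1 and 16.2 CPM at 24 h in monolayers. Its log2 fold changes against before NEE were -1.07 (unadjusted p = 0.0384 by edgeR, adjusted p = 1) and -1.30 (unadjusted p = 0.0155, adjusted p = 1). With that replicate 1 left out they were -0.038 and -0.26. At 2 h the ITGAV value went from -0.64 to 0.40. In spheroids ITGAV ran from 25.9 to 46.8 CPM with no order in time. ITGA3 was lower at 24 h than before NEE by the unadjusted test over both cultures (log2 fold change -0.39, edgeR unadjusted p = 0.0247, adjusted p = 1), which is also no call.

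Integrin transcripts stood lower in NEE-sampled RNA than in monolayer lysates right after NEE, with ITGB5 as the exception. Of the 10 genes 8 passed as lower, where 20.6% of all 17067 genes tested passed as lower and 34.8% passed in either direction. The 3 sampled libraries are technical replicates that the test took as separate samples, and with them summed into 1 library 6 genes were lower, without ITGAV (edgeR adjusted p = 0.0768) and ITGB3 (0.144). The comparison asks how far RNA drawn by NEE resembles that of the whole cells. Kit and sampling method differed together between these libraries and the lysates, and cannot be told apart.

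ITGB1 stood at 139, 159.6 and 182 CPM in the 3 NEE-sampled libraries and at 2118 and 2206 CPM in the lysates right after NEE, 13.5-fold lower (log2 fold change -3.75 ± 0.25 SE, edgeR adjusted p = 9.5e-06). ITGA2 stood at 9.27, 2.00 and 2.24 CPM against 39.0 and 38.3 CPM (-3.10 ± 0.63 SE, edgeR adjusted p = 0.00274). ITGA5 stood at 22.8, 20.7 and 24.3 CPM against 101 and 133 CPM (-2.37 ± 0.37 SE, edgeR adjusted p = 0.000534). In each case the highest NEE-sampled library was below the lowest lysate.

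ITGA3 (42.1, 29.1 and 48.2 CPM against 176 and 169 CPM) fell by 2.11 on the log2 scale (edgeR adjusted p = 8.28e-05). ITGB4 (72.3, 53.0 and 70.8 CPM against 197 and 174 CPM) fell by 1.50 (edgeR adjusted p = 0.000776). ITGAV (8.67, 7.29 and 4.09 CPM against 20.2 and 26.6 CPM) fell by 1.81 (edgeR adjusted p = 0.00988) and ITGA6 (19.2, 7.29 and 14.4 CPM against 31.7 and 58.0 CPM) fell by 1.71 (edgeR adjusted p = 0.0076). ITGA6 and ITGAV no longer passed without replicate 2 of the monolayers right after NEE (edgeR adjusted p = 0.0889 and 0.0549).

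ITGB3 and ITGB8, the rarest beta subunits, were near the counting limit in NEE-sampled RNA. ITGB3 was at 0, 0 and 1.39 CPM against 8.34 and 5.74 CPM (edgeR adjusted p = 0.0443), a call lost in 4 of 5 fits that left out 1 library, with upper-quartile scaling (edgeR adjusted p = 0.0527), without the low-count filter, in the fit with all 19 libraries, with DESeq2 (adjusted p = 0.0848) and with the 3 libraries summed. ITGB8 was at 0.687, 0 and 0 CPM against 3.03 and 1.91 CPM and did not pass (edgeR adjusted p = 0.0598), though it did with DESeq2 (adjusted p = 0.0179), without the low-count filter (edgeR adjusted p = 0.0167) and in the fit with all 19 libraries (edgeR adjusted p = 0.0294).

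ITGB5, by contrast, stood at 163, 124 and 149.8 CPM in NEE-sampled RNA and at 104 and 99.6 CPM in the lysates right after NEE. All 3 sampled libraries were above both lysates, but the log2 fold change of 0.52 ± 0.25 (SE) did not pass (edgeR adjusted p = 0.121). Against all 8 monolayer lysates, which ran from 93.8 to 155 CPM, the levels overlapped. With a stricter filter on low counts it passed (edgeR adjusted p = 0.038). Per length of exon ITGB5 made up 38.2% ± 3.89 of the 5 beta subunits in NEE-sampled RNA (SD, n = 3), next to 45.3% ± 5.44 for ITGB1 and 16.3% ± 1.72 for ITGB4, against 4.35% ± 1.42, 89.0% ± 1.89 and 6.09% ± 1.33 in monolayer lysates (SD, n = 8). ITGA3 (38.7% ± 5.05) and ITGA5 (29.1% ± 5.09) stayed first and second among the alpha subunits. Of the 10 genes 9 were below both lysates right after NEE without overlap (34.4% of all genes were) and ITGB5 was above both (26.5% were).

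**Figure D4:**
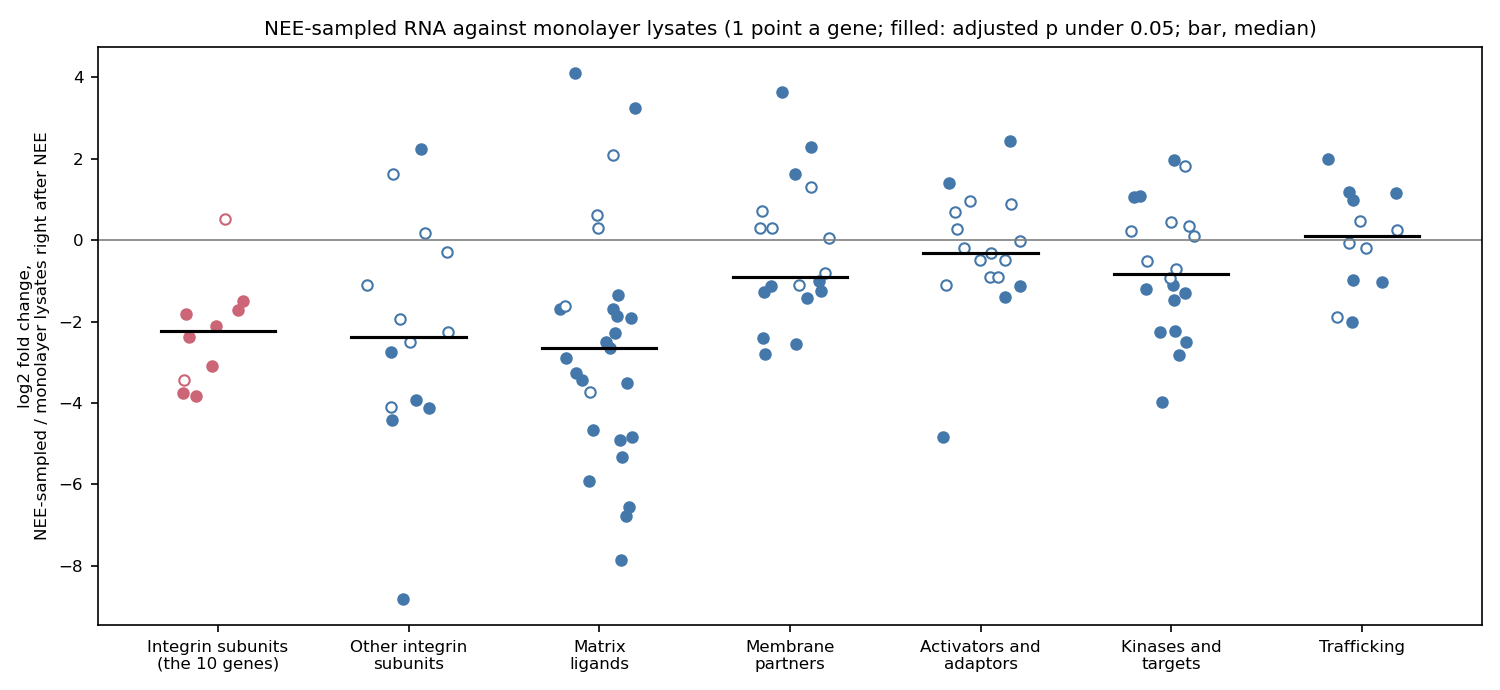
Log2 fold change of NEE-sampled RNA over monolayer lysates right after NEE, 1 point a gene, for the 10 integrin subunit genes (red) and 6 lists of other adhesion genes (blue); filled points have an edgeR adjusted p under 0.05 and bars are medians. The median of the 10 genes is -2.24, those of other integrin subunits and matrix ligands are -2.37 and -2.65, and that of trafficking genes is 0.10.

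The median log2 fold change of the 10 genes in this comparison was -2.24, against -0.21 over all genes tested; RLE and upper-quartile scaling put the latter at -0.14 and -0.05. Matrix ligands had 20 lower and 2 higher of 27, with LAMB2 (-3.50, edgeR adjusted p = 3.31e-05), THBS1 (-2.90, 4.74e-05) and LAMB1 (-3.25, 8.49e-05) first by p. Of 14 other integrin subunits 5 were lower and 1 higher. The last was ITGAE, the alpha subunit of an E-cadherin receptor, at 63.0, 85.3 and 108 CPM in NEE-sampled RNA and 17.4 and 19.1 CPM in the lysates (log2 fold change 2.23, edgeR adjusted p = 0.000396), followed by ITGA11 (at 0 CPM in all 3 sampled libraries, edgeR adjusted p = 0.000892) and ITGA4 (-4.12, 0.0107), both lower. The hemidesmosome list had 4 lower of 7, among them DST (-2.45, edgeR adjusted p = 5.96e-05) and LAMA3 (-3.43, 0.000245).

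Among the other lists, membrane partners had 8 lower and 3 higher of 18, with SLC3A2 (-2.79, edgeR adjusted p = 1.41e-05) lower, galectin LGALS1 (2.29, 0.000119) higher and CAV1 (-1.42, 0.000327) lower. Kinases and targets had 9 lower and 3 higher of 20, with VCL (-3.97, edgeR adjusted p = 2.57e-05), ACTN4 (-2.23, 3.31e-05) and filamin FLNA (-2.26, 0.000102) first, all lower. Activators and adaptors had 3 lower and 2 higher of 17, with FERMT2 (-1.39, edgeR adjusted p = 0.00393) and talin TLN1 (-1.12, 0.00645) lower and SHARPIN (2.43, 0.00396) higher. Trafficking genes had 3 lower and 4 higher of 12, with RAB4A (2.00, edgeR adjusted p = 0.00117) and RAB11A (1.00, 0.00267), which recycle integrins to the membrane, higher and GGA3 (-2.02, 0.00447) lower. TGF-beta activation had 6 lower of 13, among them TGFB2 (-2.88, edgeR adjusted p = 0.000355) and SMAD3 (-1.34, 0.00394).

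Across the 16 lysates ITGB3, ITGA2 and ITGA5 varied most alike among the 10 genes by Pearson correlation. Pearson correlations of log2(CPM + 1) were 0.89 between ITGB3 and ITGA5, 0.89 between ITGB3 and ITGA2 and 0.84 between ITGA2 and ITGA5, while ITGB3 and ITGA6 gave -0.50, the lowest of all pairs. Rank (Spearman) correlations of the first pairs, in that order, were 0.74, 0.88 and 0.60, and ITGB1 with ITGA3 gave 0.69. Replicate 1 of the monolayers before NEE was the highest lysate for ITGB3, ITGA2 and ITGA5 (46.9, 110.4 and 333 CPM). The correlations were not computed without it. The libraries share the culture, time and replicate effects above, so these are descriptions. By Pearson correlation the protein-coding genes nearest to ITGB4 were ORAI3 (0.96) and DAPK1 (0.93), and to ITGA5 GLIPR1 (0.96) and OSMR (0.92). Those nearest to ITGB3 were GSDME (0.93) and CSGALNACT1 (0.90), to ITGB1 SFXN3 (0.93) and HK1 (0.92), and to ITGA3 P4HA2 (0.90) and TYMP (0.90). ITGA2 was nearest to RAI14 (0.90) and ITGB3, ITGB5 to SLC25A23 (0.85) and SLC29A2 (0.85), ITGAV to PANX1 (0.85) and DPP4 (0.83), ITGB8 to ABCC1 (0.83) and WNT3 (0.81), and ITGA6 to PTRH2 (0.82) and PRCC (0.78).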

How the data were processed

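Smart-Seq2 libraries from 16 lysates and 3 NEE-sampled RNAs were analysed. The values used are raw counts per gene as deposited by the authors. The submitters' processing notes name FastQC, Trimmomatic, HISAT2, featureCounts and the build GRCh38; the versions, the annotation release, whether strand was used and how multimapping reads were handled were not given in the sources used here. Members that overlap antisense genes in exons (ITGAV, ITGA6, ITGB8, ITGA5 and ITGB1), and ITGB3, which shares exons with a read-through gene, are uncertain to that extent.

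The tests on counts used edgeR 4.0.16 (R 4.3.3): TMM scaling, its low-count filter, the robust quasi-likelihood test, and Benjamini-Hochberg adjustment over every gene tested, with a threshold of 0.05. For lysates, 16 libraries in 8 groups gave 17822 genes and 8 residual degrees of freedom. The replicate split was tested with the replicate number fitted within each culture (6 degrees of freedom). Sampled RNA was fitted with its 3 libraries, taken as separate, and the 8 monolayer lysates (17067 genes, 6 degrees of freedom). Levels per kilobase use union exon lengths of GENCODE release 29, which placed 58207 of the 62700 genes. The test was tried on simulated counts before use.

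The labels give the replicate number as a batch tag, which was read as a pairing of the lysates. Across 10034 genes, the deviations of libraries with the same number correlated at -0.277 to 0.5 over 28 pairs (median 0.214, 19 above 0.1). The main fits leave the number out. Alternatives were 2 other scalings (RLE, upper quartile), the low-count filter dropped or set to 5 CPM in 2 libraries, DESeq2 1.42.0, a fit of all 19 libraries, the replicate block, the 3 sampled libraries summed, and each library left out; the replicate block within culture and the replicate split were added after the data were seen. All 10 members are named. Of each other list up to 3 genes that passed are named by smallest p, and DST, FN1 and the genes of lists named beyond 3 were added after their values were seen. The members and lists were chosen with earlier results of these data known. Some items are not reported here.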

Additional observations from a re-analysis of the deposited data

How the results depend on the processing

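Of the 10 integrin genes, those that passed between spheroids and monolayers over the 4 times numbered 2, 1 in the fit with all 19 libraries, and 1 to 4 when each library was left out. ITGB4 passed in all of these fits. With the replicate number as a block 2 passed in that comparison (ITGA3 adjusted p = 0.0157 by edgeR). Before NEE the count of 0 became 1 (ITGB4) without the filter, with DESeq2 and with the replicate block within culture (edgeR adjusted p = 0.00909). After NEE the count of 1 became 4 without the filter, 3 with DESeq2, 2 with the replicate block and 3 with the replicate block within culture. Without the filter, 1 gene passed at 2 h and 2 at 24 h against before NEE in both cultures, as did 1 and 2 in monolayers. These fits include replicate 1 of the monolayers before NEE and were not repeated without it. For the replicate split in spheroids 2 became 5 without the filter and 6 with DESeq2, and 1 to 2 without single libraries; in monolayers 0 became 1 without the filter and 1 with DESeq2. Its difference between the cultures went from 0 to 2 without the filter, 3 with DESeq2, and 0 to 1 without single libraries. For NEE-sampled RNA against lysates right after NEE, 8 became 5 to 8 without single libraries, the 5 without replicate 2 of the monolayers right after NEE, 6 with the 3 sampled libraries summed (ITGAV and ITGB3 lost), 7 with upper-quartile scaling (ITGB3 lost) and 9 with the stricter filter (ITGB5 gained). Without the low-count filter, with DESeq2 and with all 19 libraries it was 8, with ITGB8 in place of ITGB3. The summed level of the 10 genes in NEE-sampled RNA moved from 459 CPM with TMM to 389 CPM on library totals. The cause was not tested in these cases. The shares of all genes that passed under these settings are not given here. Whether a count moved with calls in general can therefore not be read from it.

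Leaving out single libraries turned the sign of some values that had not passed. Between spheroids and monolayers over the 4 times the log2 fold changes ran from -0.84 to 1.72 for ITGB3, -0.047 to 0.41 for ITGA2 and -0.28 to 0.0070 for ITGA6, and after NEE from -1.06 to 2.37 for ITGB3. Over both cultures ITGB3 ran from -2.32 to 0.53 right after NEE, -2.63 to 0.24 at 2 h and -5.53 to 0.018 at 24 h; in monolayers it ran from -2.73 to 0.45 right after NEE and -4.73 to 0.043 at 2 h, and ITGA5 from -1.63 to 0.020 at 2 h. The difference between the cultures ran for ITGB3 from -0.92 to 4.77 right after NEE, -0.56 to 5.03 at 2 h and -5.81 to 5.29 at 24 h, and for ITGA2 from -0.12 to 1.69 right after NEE and -0.027 to 1.79 at 2 h. ITGAV in the spheroid split ran from -0.15 to 0.33. A lone library left in a group was given the spread of the other groups. With 2 libraries a group, 3 counts (0.122 to 0.22 CPM) limit what can be said of ITGB3 and ITGB8 in NEE-sampled RNA.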
